A study of Mus musculus with 6 samples.

Results

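Disome footprints were examined over 9 of the 10 genes chosen to represent triglyceride synthesis, lipid droplets and triglyceride export, among 8941 genes listed in mouse liver tables. The rule picks the genes by name and Ensembl identifier and sets no threshold on their values, although it was written with earlier results of these data known: Gpam, Lpin1, Lpin2, Dgat1, Dgat2, Pnpla2, Plin2, Plin5 and Mttp, while Pnpla3 was not analysed here. Where a ribosome runs up against another, the pair protects a longer piece of the transcript from nuclease, and sequencing these pieces gives disome footprints. Whole livers were taken from males of the inbred strain C57BL/6JRj, aged 11 to 12 weeks and kept under 12 h light and 12 h dark for 2 weeks. There were 2 libraries at ZT0 (zeitgeber time 0, when the lights turn on), 2 at ZT2 and 2 at ZT12, and each library was a pool of 2 livers. The labels name no genetic change and no treatment of the animals, and cycloheximide, an elongation inhibitor, was in the lysis buffer of every group. Levels are RPKM (reads per kilobase of coding sequence, scaled by library), values with an SD have n = 2 libraries, and with pools as replicates the p-values cover the spread between these pools.

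The liver stores surplus fatty acids as triglyceride in cytoplasmic droplets and exports part of it on very-low-density lipoprotein. The glycerol phosphate acyltransferases carry out only the first acylation, of glycerol 3-phosphate. At the later phosphatidate stage the lipins remove the phosphate, and the DGAT enzymes add the last acyl group. Droplets are coated by perilipins, which limit access of lipases such as ATGL, the product of Pnpla2, and microsomal triglyceride transfer protein loads triglyceride onto apolipoprotein B. Several of these genes are known to follow the daily feeding and fasting cycle in mouse liver. Mice with free access to food eat mostly in the dark, so that ZT0 follows the main feeding period and ZT12 the resting phase, but the feeding regime is not given in the sources used here.

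Depth and library quality differed between the time points. Whole reads recovered from the RPKM steps totalled 6346387 to 7845062 at ZT0 and ZT2 and 11904184 to 12322651 at ZT12. The ZT2 pair stood apart from the others, with a replicate SD of 0.528 on the log2 scale over all tested genes. This SD was 0.353 at ZT12 and 0.246 at ZT0. Genes listed at 0 numbered 97 and 250 at ZT2, 52 in ZT12 replicate 2 and 4 in each of the other libraries. No member was at 0 in any library, and the lowest member count was 17 reads. Marker genes of liver and other cell types could not be matched to the identifiers, so the cells behind these reads were not tested. Transcript amounts were not analysed here, so a disome level reflects transcript amount, translation and ribosome stacking together, and in whole tissue fewer cells of a type and less RNA per cell cannot be told apart.

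The 9 genes covered a wide range of levels. Plin2, the main droplet coat protein of hepatocytes, had by far the highest mean, at 919 RPKM over the 6 libraries, and ranked 143rd of 8941 genes. Mttp with 101 RPKM and Gpam with 94.1 RPKM lay above 88.8% and 88.3% of listed genes. Lpin1 averaged 81.4 RPKM, Dgat2 40.9 RPKM, Plin5 35.1 RPKM, Lpin2 17.3 RPKM and Pnpla2 14.6 RPKM. Dgat1 was lowest, at 2.49 RPKM, above 23.4% of listed genes. All 9 passed the filter of a mean of 1 RPKM or more, each through its mean over all 6 libraries. Plin2 was first and Dgat1 last of the 9 in every library, and the order between them changed with time. Lpin1 was 7th and 6th at ZT0, 6th in both ZT2 libraries, and 2nd in both ZT12 libraries.

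**Figure D1:**
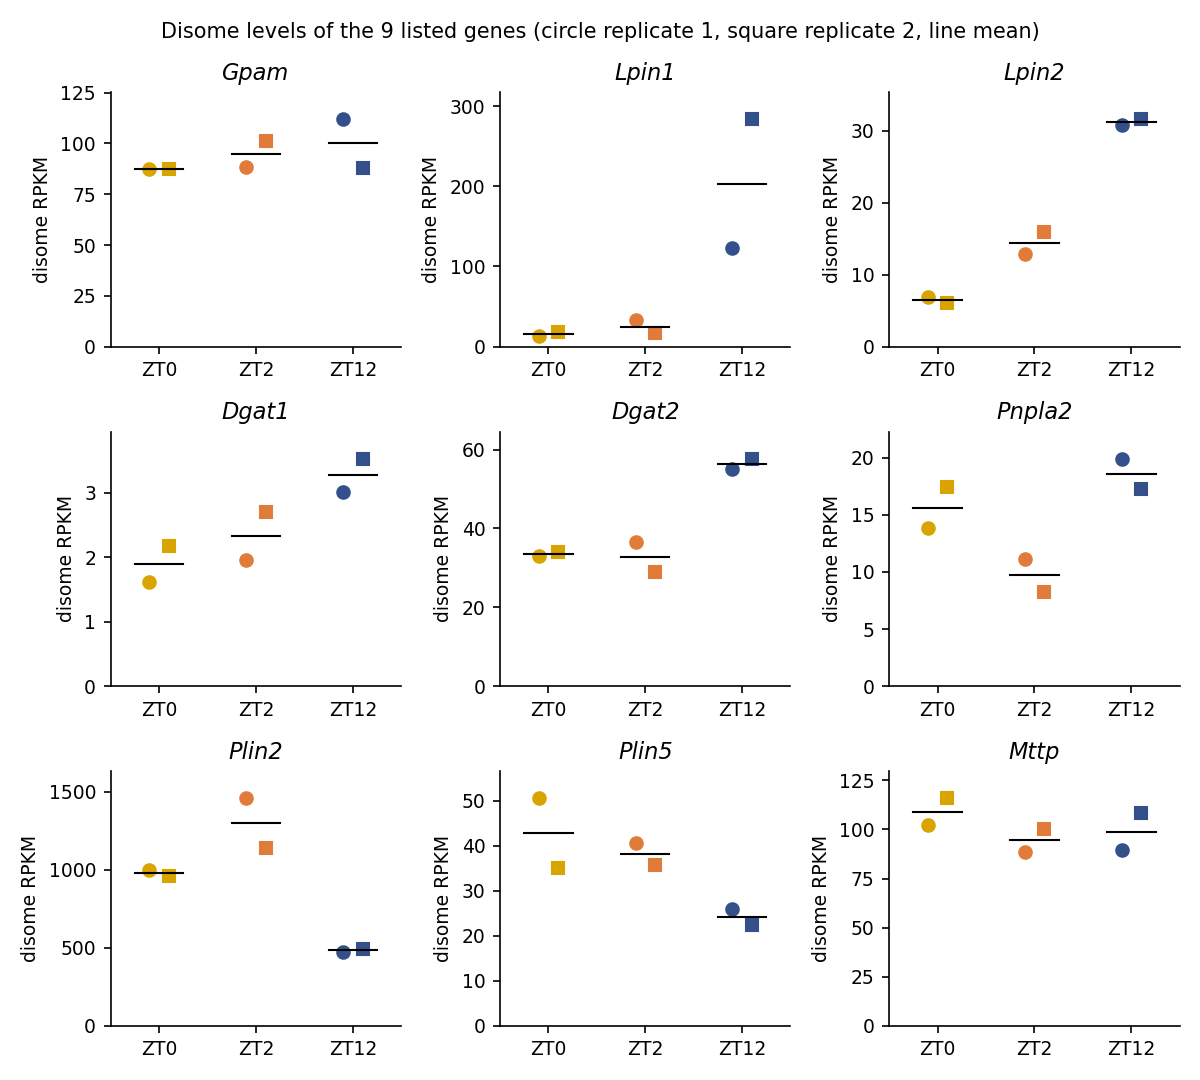
Disome RPKM (y axis, linear from 0, scale set per gene) of the 9 genes at ZT0, ZT2 and ZT12 (x axis), with a circle for replicate 1, a square for replicate 2 and a line at their mean. Both ZT12 points lie above all others for Lpin1, Lpin2, Dgat1 and Dgat2, and below all others for Plin2 and Plin5. Pairwise, libraries did not overlap in 54.4% of all tested genes for ZT12 against ZT0 and in 45.9% for ZT12 against ZT2. The share of genes separated from both at once was not computed.

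The comparison of ZT12 with ZT0 asked what differed between the onset of darkness and the onset of light. Lpin1 and Lpin2, which encode the phosphatases of the pathway, rose at ZT12. These 2 of 9 were called in limma at an adjusted p under 0.05, where 0.946% of the 8355 tested genes were called. Values of 5 members were higher in both ZT12 libraries than in either ZT0 library, namely Gpam, Lpin1, Lpin2, Dgat1 and Dgat2, and 2 were lower, Plin2 and Plin5. Such non-overlap was found in 54.4% of all tested genes. The median log2 change was 0.24 over the 9 genes and -0.01 over all tested genes.

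In the comparison of ZT12 with ZT2, 10 h earlier, Lpin1 rose and Plin2 fell. These 2 of 9 calls stand against 2.06% of all tested genes. Non-overlapping libraries were found for 5 members higher at ZT12 (Lpin1, Lpin2, Dgat1, Dgat2 and Pnpla2) and 2 lower (Plin2 and Plin5), against 45.9% of all tested genes. The median log2 change was 0.37 over the 9 genes and 0.03 over all tested genes. This comparison shares its ZT12 libraries with the one above, so the values are not separate support for each other.

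For ZT2 against ZT0, the first hours of light, no member was called (0 of 9 in limma), where 0.0239% of all tested genes were. An unadjusted limma p under 0.05 was found for 2 of the 9 members and for 1142 of the 8355 tested genes. Both ZT2 libraries were above both ZT0 libraries for Gpam, Lpin2 and Plin2, and below them for Pnpla2 and Mttp, while 46.4% of all tested genes did not overlap. Over the 3 time points together, limma's F test called Lpin1, Lpin2 and Plin2, 3 of 9 members against 1.26% of all tested genes.

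**Figure D2:**
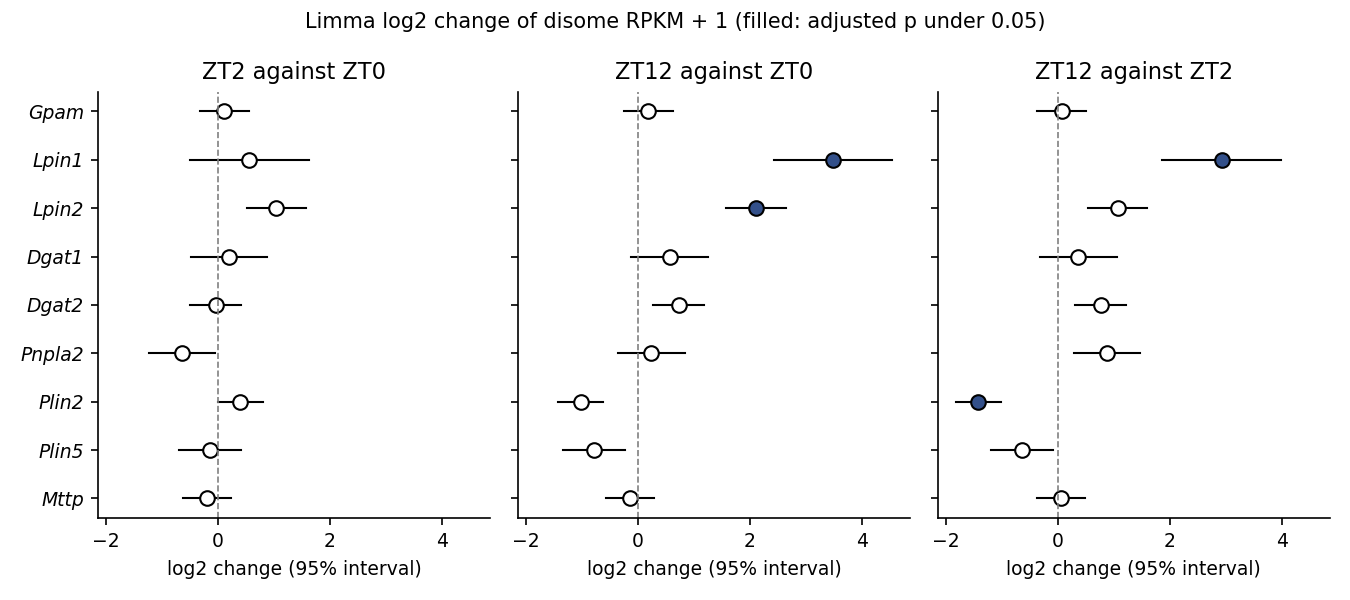
Log2 change of disome RPKM + 1 (x axis) for each of the 9 genes (y axis) in the 3 comparisons, with limma's 95% intervals as lines and filled points where the adjusted p was under 0.05. Lpin1 and Lpin2 are filled for ZT12 against ZT0, Lpin1 and Plin2 for ZT12 against ZT2, and none for ZT2 against ZT0.

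Gpam (ENSMUSG00000024978), which encodes the mitochondrial acyltransferase of the first acylation step, was nearly level. Its RPKM was 87.4 and 87.5 in ZT0 libraries, 88.5 and 101 in ZT2 libraries and 112 and 88.1 in ZT12 libraries. Replicate 1 at ZT12 was the highest of all libraries, and replicate 2 at ZT12 lay below both ZT2 libraries. The log2 change for ZT12 against ZT0 was 0.18 with a 95% interval of -0.26 to 0.62 and a limma adjusted p of 0.713. These values rest on 1355 to 3636 reads per library.

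Lpin1 (ENSMUSG00000020593), a phosphatidate phosphatase that in mouse liver also acts in the nucleus as a transcriptional coactivator, had the largest log2 change of the 9 both against ZT0 and against ZT2. Its RPKM was 13.8 and 18.0 in ZT0 libraries, 33.4 and 16.7 in ZT2 libraries and 123 and 284 in ZT12 libraries, from 269 and 384, 572 and 357, and 4460 and 9705 reads. The ZT12 libraries did not overlap the other 4, but they differed 2.31-fold between themselves, the widest replicate gap of any member at any time point. The ZT2 libraries differed 2.00-fold, and replicate 2 lay between the ZT0 libraries. The mean at ZT12 was 203 ± 114 RPKM, 12.8-fold that at ZT0, 15.9 ± 2.97 RPKM. The log2 change was 3.49 (SE 0.45, limma adjusted p 0.0209).

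Against ZT2, where Lpin1 averaged 25.1 ± 11.8 RPKM, the ZT12 level was 8.11-fold that level (log2 change 2.93, SE 0.45, limma adjusted p 0.0284). With ZT2 replicate 1 left out the limma adjusted p was 0.0182, and with ZT2 replicate 2 left out it was 0.0391. The call was lost without either ZT0 library, at 0.0688 and 0.0687, and without ZT12 replicate 2, at 0.187, but not without ZT12 replicate 1, at 0.0472. Against ZT0 the limma adjusted p for Lpin1 was 0.173 and 0.166 without ZT0 replicate 1 and 2, and 0.0600 and 0.182 without ZT12 replicate 1 and 2. The size of the change moved with the ZT12 libraries. Without ZT12 replicate 2, the higher library, the log2 change was 2.89 against ZT0 and 2.33 against ZT2, and without ZT12 replicate 1 it was 4.09 against ZT0 and 3.53 against ZT2. With no variance trend, both Lpin1 calls were lost, at limma adjusted p values of 0.0551 against ZT0 and 0.0549 against ZT2. The call against ZT2 was also lost on only the 4 libraries compared, at 0.0687. For ZT2 against ZT0 the Lpin1 change of 0.56 had a 95% interval of -0.49 to 1.62.

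Lpin2 (ENSMUSG00000024052), another lipin with the same phosphatase activity, rose in closely matched libraries. Its RPKM was 6.88 and 6.03 in ZT0 libraries, 12.9 and 15.9 in ZT2 libraries and 30.8 and 31.6 in ZT12 libraries. The 3 time points did not overlap, and the ZT12 libraries differed 1.03-fold. Between 2 time points, 45.9% to 54.4% of all tested genes did not overlap, and the share separating all 3 was not computed. Lpin2 averaged 31.2 ± 0.548 RPKM at ZT12, 4.83-fold the 6.46 ± 0.601 RPKM at ZT0 (log2 change 2.11, SE 0.23, limma adjusted p 0.0120). This call was lost when any single ZT0 or ZT12 library was left out, at limma adjusted p values of 0.113 and 0.169 without ZT0 replicate 1 and 2, and 0.101 and 0.152 without ZT12 replicate 1 and 2. The log2 change was 2.03 to 2.20 in those fits.

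The intermediate level of Lpin2 at ZT2 did not pass the test on either side. Its log2 change was 1.04 for ZT2 against ZT0, with a 95% interval of 0.51 to 1.57 and a limma adjusted p of 0.191. It was 1.07 for ZT12 against ZT2, with a 95% interval of 0.54 to 1.60 and a limma adjusted p of 0.0654. Among fits that kept all ZT2 and ZT12 libraries, this last limma adjusted p passed in 2 settings. It was 0.0477 with libraries scaled to the same total and 0.00868 with voom. It did not pass with quantile normalization (0.0595), no variance trend (0.085), the replicate number as a block (0.104) or only the 4 libraries compared (0.162). With 1 library left out, the log2 change for ZT12 against ZT2 spanned 0.93 to 1.22, highest without ZT2 replicate 2. The recovered length of the Lpin2 model was 3011 nucleotides, which is no multiple of 3, whereas the coding lengths of the other 8 members, 1164 to 2772 nucleotides, were.

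Promoter sequence is shown for the genes that passed a test. Their disome levels moved with time, and whether their promoters had a part in this was not tested. The 250 bases before a start were taken from RefSeq on GRCm38.p6, 5′ to 3′ on the gene's strand, and capitals mark matches on either strand to the motifs searched. Lpin1 is at chr12:16610967-16611216 on the minus strand, inside the span of the gene, which has longer transcript models. Lpin2 is at chr17:71183282-71183531 on the plus strand, the most upstream of its 3 listed starts. Plin2 is at chr4:86670060-86670309 on the minus strand. The Lpin2 and Plin2 windows lie outside the gene's span.
Lpin1: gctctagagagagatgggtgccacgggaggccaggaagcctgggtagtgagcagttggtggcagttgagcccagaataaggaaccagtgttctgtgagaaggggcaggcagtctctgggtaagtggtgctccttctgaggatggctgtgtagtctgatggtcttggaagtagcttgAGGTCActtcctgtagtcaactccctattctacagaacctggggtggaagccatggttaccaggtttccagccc
Lpin2: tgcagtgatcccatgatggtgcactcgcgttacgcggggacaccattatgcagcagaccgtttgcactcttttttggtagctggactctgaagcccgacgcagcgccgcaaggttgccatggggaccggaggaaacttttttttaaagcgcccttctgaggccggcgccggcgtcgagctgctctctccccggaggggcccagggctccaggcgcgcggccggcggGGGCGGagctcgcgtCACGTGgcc
Plin2: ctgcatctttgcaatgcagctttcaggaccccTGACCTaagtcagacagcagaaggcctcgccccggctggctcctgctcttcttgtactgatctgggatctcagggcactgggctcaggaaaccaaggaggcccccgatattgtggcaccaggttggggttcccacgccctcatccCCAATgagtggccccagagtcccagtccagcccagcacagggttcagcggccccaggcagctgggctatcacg

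The motifs searched were the E-box CACGTG, bound by the clock factors BMAL1 and CLOCK, its variant CACGTT, the D-box TTATGTAA, the nuclear receptor core hexamer AGGTCA, the cAMP response element TGACGTCA, the GC box GGGCGG, the CCAAT box CCAAT and the TATA box TATAAA. None of these contains another. The Lpin1 window held AGGTCA 74 to 69 bases before the start, and the Plin2 window held it on the opposite strand 218 to 213 bases before. The Lpin2 window held CACGTG 9 to 4 bases before the start, beside a GC box. CACGTG occurs in 6.02% and AGGTCA in 14.0% of 32817 windows of this length. Among the 11 windows listed for 7 of the 9 members, AGGTCA was in 4, 1 each of Gpam, Lpin1, Plin2 and Plin5, and CACGTG was in 1. The Mttp window held none of these motifs. A match describes letters only, and binding was not measured.

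The last acylation step is carried by Dgat1 (ENSMUSG00000022555) and Dgat2 (ENSMUSG00000030747), enzymes of unrelated protein families. The RPKM of Dgat2 was 33.0 and 34.1 in ZT0 libraries, 36.6 and 29.0 in ZT2 libraries and 55.0 and 57.7 in ZT12 libraries. Its ZT12 libraries were above the other 4, with a mean 1.68-fold that of ZT0. The log2 change of Dgat2 for ZT12 against ZT0 was 0.73 (SE 0.19, limma adjusted p 0.156). For ZT12 against ZT2 it was 0.77, with a 95% interval of 0.32 to 1.23 and a limma adjusted p of 0.0997. With 1 library left out, this log2 change spanned 0.61 to 0.94.

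Dgat1 was low throughout, with an RPKM of 1.61 and 2.17 in ZT0 libraries, 1.95 and 2.69 in ZT2 libraries and 3.01 and 3.52 in ZT12 libraries. These values rest on 17 and 25, 18 and 31, and 59 and 65 reads. The log2 change for ZT12 against ZT0 was 0.57, with a 95% interval of -0.12 to 1.25 and a limma adjusted p of 0.428, on a scale that understates changes at such low levels. Per length, Dgat2 stood 10.8 to 20.5 times above Dgat1 in every library. The mean ratio was 18.1 ± 3.36 for ZT0, 14.8 ± 5.65 for ZT2 and 17.3 ± 1.33 for ZT12, and the 3 time points overlapped.

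Plin2 (ENSMUSG00000028494), whose protein coats hepatocyte droplets and is degraded when not bound to them, was lowest where the lipins were highest, at ZT12. Its RPKM was 999 and 958 in ZT0 libraries, 1457 and 1136 in ZT2 libraries and 471 and 492 in ZT12 libraries, from 7747 to 11466 reads per library. The 3 time points did not overlap, with ZT2 highest and ZT12 lowest, and the share of all tested genes separating so was not computed. At ZT12 Plin2 averaged 482 ± 14.7 RPKM, 0.372 times the 1297 ± 227 RPKM at ZT2. The log2 change was -1.42 (SE 0.17, limma adjusted p 0.0137), and the limma adjusted p was 0.0181 and 0.0123 without ZT2 replicate 1 and 2. The call was lost without either ZT0 library, at 0.0589 and 0.0564, and without ZT12 replicate 1 or 2, at 0.0779 and 0.139. It was also lost with no variance trend, at 0.0530, and on only the 4 libraries compared, at 0.0570.

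Against ZT0, at 978 ± 28.4 RPKM, the ZT12 level of Plin2 was 0.492 times as high. The log2 change of -1.02 ± 0.17 (SE) missed the threshold, with a limma adjusted p of 0.0520. It passed without ZT2 replicate 1 or 2, at limma adjusted p values of 0.0160 and 0.0164, and not without a ZT0 or ZT12 library. It also passed with voom on the recovered reads, at 0.00668, on only the 4 libraries compared, at 0.0165, and with a pseudocount of 5, at 0.0490. For ZT2 against ZT0 the log2 change of Plin2 was 0.39, with a 95% interval of -0.01 to 0.80 and a limma adjusted p of 0.375.

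Plin5 (ENSMUSG00000011305), a perilipin that tethers droplets to mitochondria, had an RPKM of 50.6 and 35.1 in ZT0 libraries, 40.7 and 35.8 in ZT2 libraries and 25.9 and 22.3 in ZT12 libraries. Both ZT12 libraries were the lowest of the 6, and the ZT0 libraries spanned those of ZT2. The log2 change for ZT12 against ZT0 was -0.78 (SE 0.23, limma adjusted p 0.198), and that against ZT2 was -0.64 (SE 0.23, limma adjusted p 0.205). Plin2 stood 18.2 to 35.8 times above Plin5 per length within a library. The ratio was 19.7 and 27.3 in ZT0 libraries, 35.8 and 31.8 in ZT2 libraries and 18.2 and 22.0 in ZT12 libraries. The ZT2 ratios were above the other 4, and those of ZT0 and ZT12 overlapped.

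Pnpla2 (ENSMUSG00000025509), which encodes ATGL, the lipase of the first step of triglyceride breakdown, was lowest at ZT2. Its RPKM was 13.8 and 17.4 in ZT0 libraries, 11.1 and 8.27 in ZT2 libraries and 19.9 and 17.3 in ZT12 libraries. The ZT2 libraries were below the other 4, and those of ZT0 and ZT12 overlapped. The log2 change for ZT2 against ZT0 was -0.64, with a 95% interval of -1.23 to -0.05 and a limma adjusted p of 0.337. For ZT12 against ZT2 it was 0.88, with a 95% interval of 0.29 to 1.48 and a limma adjusted p of 0.129. Pnpla2 was read from 93 and 100 reads at ZT2 and from 142 to 380 elsewhere.

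Mttp (ENSMUSG00000028158), the export protein, was, like Gpam, nearly level. Its RPKM was 102 and 116 in ZT0 libraries, 88.5 and 100.3 in ZT2 libraries and 89.5 and 108 in ZT12 libraries, and the ZT12 libraries overlapped those of both other time points. The log2 change for ZT12 against ZT0 was -0.14, with a 95% interval of -0.57 to 0.28 and a limma adjusted p of 0.773. For ZT12 against ZT2 it was 0.06, with a 95% interval of -0.37 to 0.49.

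Ratios between members within a library do not depend on the scaling between libraries. Plin2 over Pnpla2, droplet coat over droplet lipase, was 72.2 and 55.0 in ZT0 libraries, 131 and 137 in ZT2 libraries and 23.7 and 28.5 in ZT12 libraries, so the 3 time points did not overlap. Plin2 alone separated them in the same order, so this ratio partly repeats the Plin2 values. Plin5 over Pnpla2 also separated the 3 time points, but its nearest ZT0 and ZT2 libraries were at 3.659 and 3.663. Plin2 over Lpin1 overlapped between ZT0 and ZT2, and Gpam over Mttp at ZT12 overlapped both other time points. How many pairs of genes separate all 3 time points was not counted. Lpin1 over Lpin2 was 2.00 and 2.98 in ZT0 libraries, 2.60 and 1.05 in ZT2 libraries and 3.99 and 8.98 in ZT12 libraries. The ZT12 ratios were above the other 4 but differed more between themselves than the lower one differed from those of ZT0. Lpin1 exceeded Lpin2 in every library. Whether the changes of the lipins differed was not tested.

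**Figure D3:**
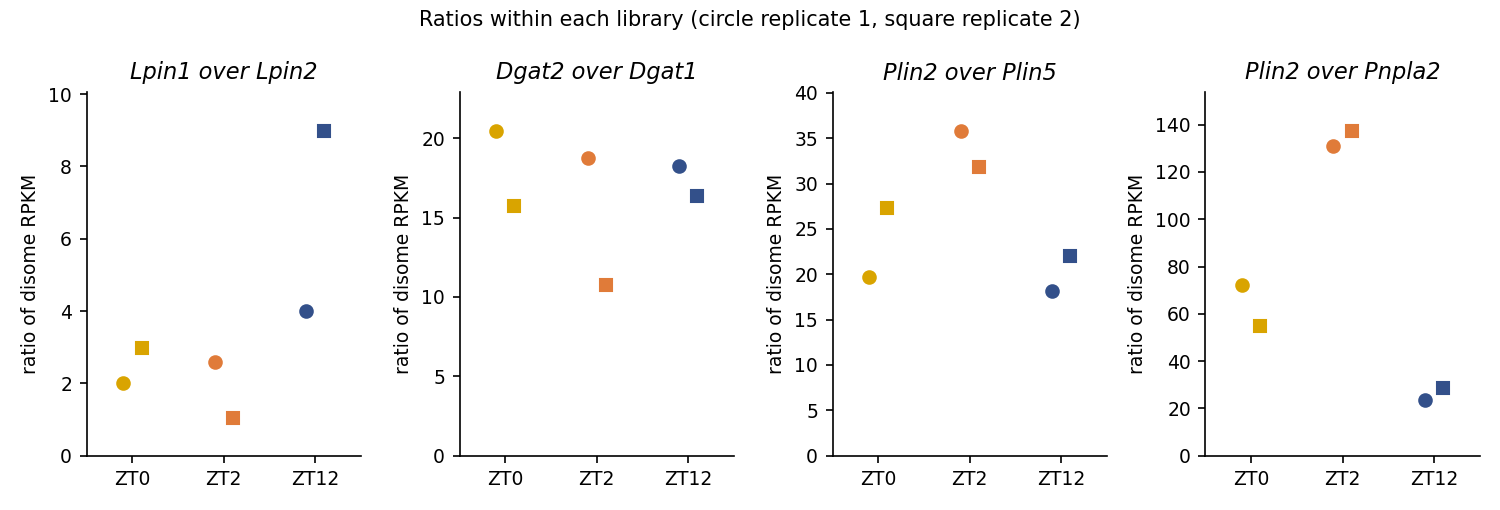
Ratio of disome RPKM of a pair of genes within each library (y axis, linear from 0) at ZT0, ZT2 and ZT12 (x axis), with a circle for replicate 1 and a square for replicate 2. Plin2 over Pnpla2 separates all 3 time points, as Plin2 alone does. The ratio is 72.2 and 55.0 in ZT0 libraries, 131 and 137 in ZT2 libraries and 23.7 and 28.5 in ZT12 libraries. Dgat2 over Dgat1 overlaps throughout.

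Together the 9 genes held 0.191% of recovered reads in both ZT0 libraries, 0.249% and 0.213% in those of ZT2, and 0.179% and 0.223% in those of ZT12. The 5 synthesis genes together held 0.0310% and 0.0323% in ZT0 libraries, 0.0386% and 0.0377% in ZT2 libraries and 0.0828% and 0.122% in ZT12 libraries. Plin2 and Plin5 together held 0.132% and 0.125% in ZT0 libraries, 0.186% and 0.147% in ZT2 libraries and 0.0677% and 0.0683% in ZT12 libraries. The synthesis share was highest and the coat share lowest in the ZT12 libraries. Lpin1 held 4460 of 10209 and 9705 of 14471 synthesis reads in the ZT12 libraries. Plin2 held 7872 of 8344 and 7747 of 8130 coat reads there, so the coat share mostly repeats the Plin2 values. Exact Clopper-Pearson 95% intervals of these shares were at most 0.00778 percentage points wide for the 9 genes, at most 0.00397 for the synthesis genes and at most 0.00672 for the coat genes, and they cover counting error only.

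**Figure D4:**
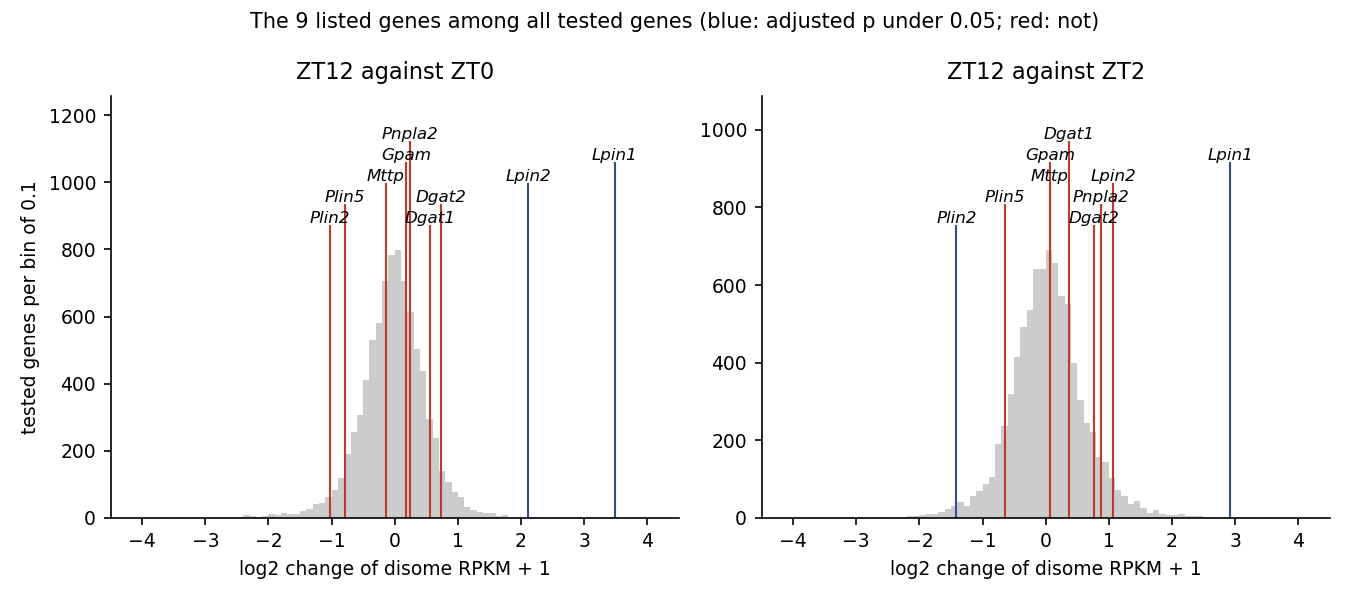
Histograms of the log2 change of disome RPKM + 1 (x axis) over the 8355 tested genes (y axis, genes per bin of 0.1) comparing ZT12 with ZT0 and with ZT2, with the 9 genes as vertical lines, blue where the adjusted p was under 0.05 and red where not. Lpin1 lies far in the right tail of both, at 3.49 and 2.93, and Plin2 in the left tail at -1.02 and -1.42, while Gpam and Mttp lie near the centre.

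Among 3926 genes that averaged 10 RPKM or more, those most like the called members over the 6 libraries were ENSMUSG00000025825 for Lpin1, with a Pearson r of 0.995 on log2(RPKM + 1), ENSMUSG00000028530 for Lpin2, with 0.994, and ENSMUSG00000003402 for Plin2, with 0.999. The tables do not pair these identifiers with names. With 6 libraries and so many genes compared, values this high are a description of shared courses and carry no test.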

How the data were processed

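The authors deposited RPKM values per gene for 6 disome libraries, 1 file each. Per the labels' protocols, lysates of 2 mice were pooled, treated with RNase I (650 U per 15 OD260, 45 min) and passed through size exclusion columns. CASAVA 1.82, Bowtie2 2.3.0, cutadapt, StringTie, STAR and edgeR are named in the submitters' processing notes, beside GRCm38.p2 and mm10. The sources used here give neither the roles of these tools nor the gene filter. The members and lists were chosen with earlier results of these data known.

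Whole reads were recovered from the steps within each gene, to a tolerance of 1e-05 reads, for all 8941 genes. The library constants followed the upper quartile of reads per gene. Recovered lengths were multiples of 3 for 95.16% of genes, so most are lengths of coding sequence, and that of Lpin2 is among the exceptions. The reads served for depth and for an alternative test.

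Differences between time points were fitted in limma 3.58.1 (R 4.3.3) to log2(RPKM + 1) of the 8355 genes averaging 1 RPKM or more, with a mean per time point, no covariate, a variance trend and 3 residual degrees of freedom. Benjamini-Hochberg adjustment ran over all of these genes, and an adjusted p under 0.05 was a call. Intervals of log2 changes are limma's at 95%, and folds are ratios of mean RPKM. The rule for named genes took all members, other pathway genes and similar genes. Pathway and cell type lists could not be matched, since the RefSeq table carries Ensembl identifiers for 0 of 49997 genes, so member names came with the definition of the set. Replicate numbers were not taken as pairs, because same-numbered libraries deviated together with correlations of only -0.0756, -0.0186 and 0.0184.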

Additional observations from a re-analysis of the deposited data

How the results depend on the processing

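Calls and directions of the main fit were compared with those under the alternatives. Of 405 values for the members under the alternatives, 40 kept a call, 20 lost it, 9 gained it and 329 were not called in either fit. The sign turned in 7, all without a call. In several alternatives the sign could not turn, because they leave the log2 change as it is. These were no filter on low values, no variance trend, the replicate block and only the 4 libraries compared. Leaving out a library of the time point outside the comparison was another. The count of turned signs therefore does not measure how stable the directions were. With 1 library left out, the log2 change for ZT2 against ZT0 spanned -0.21 to 0.12 for Dgat2, which was 0.015 under quantile normalization, and -0.40 to 0.12 for Plin5. For ZT12 against ZT2 it spanned -0.10 to 0.24 for Gpam and -0.074 to 0.20 for Mttp. Members called numbered 2 for ZT12 against ZT0, 2 for ZT12 against ZT2 and 3 in the F test. Dropping the variance trend made these 1, 0 and 1, and fitting only the 4 libraries compared made the second 0. Across fits that each lacked a library they ranged from 0 to 3, 0 to 3 and 0 to 4, and stayed at 0 for ZT2 against ZT0. Such fits take the spread of the single remaining library from the other time points. For these shifts the cause was not tested.

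Over all genes the calls were 2 at ZT2 against ZT0, 79 at ZT12 against ZT0, 172 at ZT12 against ZT2 and 105 in the F test. In that order there were 1, 32, 80 and 34 with no variance trend, and 9, 283, 356 and 350 with voom on the recovered reads. Only the 4 libraries compared gave 1, 282 and 39. A pseudocount of 0.1 gave 6 for ZT2 against ZT0. Fits lacking a library gave 0 to 248, 3 to 283, 5 to 597 and 5 to 612. With the replicate number as a block, ZT12 against ZT0 gave 51 and ZT12 against ZT2 gave 113, and no call of a member changed. When libraries were brought to an equal total, the median log2 change of all genes was -0.11 at ZT2 relative to ZT0 and 0.17 at ZT12 relative to ZT2, and 132 genes were then higher and 61 lower at ZT12 relative to ZT2, against 89 and 83.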
